A study of Mus musculus with 4 samples.

Results

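The nuclear genes for the subunits of the mitochondrial respiratory chain were followed in RNA sequencing of T cells labelled as lacking Mthfd2 (TEaMthfd2 KO, 2 libraries) and as wild type (TEaWT, 2 libraries). Members were the rows of the count tables whose symbol belongs to the Nduf, Sdh, Uqcr, Cox4 to Cox8 or Atp5 families, with Cyc1 and Cycs, and without the 3 rows that carry -ps in their symbol. This gave 90 of 31748 rows, of which 39 belong to complex I, 4 to complex II, 9 to complex III, 1 is cytochrome c, 20 belong to complex IV and 17 to complex V. Of the 90, 84 had enough counts to be tested. The other 6 were Cox4i2, Cox7b2, Cox8c and Ndufb11b, with 0 counts in every library, and Cox8b and Ndufa4l2, with at most 4 counts in a library.

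Both groups were, per the labels, CD4+ T cells taken by positive magnetic selection from spleens of 8-week-old mice and cultured for 3 days with mitomycin-treated antigen-presenting cells from spleens of F1 (BALB/c x C57BL/6) mice of the same age. TEa is the name of a transgenic T cell receptor, which by the labels both groups carry. The labels do not say in which cells Mthfd2 was deleted, which part of the gene was removed, or whether replicates were separate mice or cultures. The p-values thus rest on how far these particular libraries differ, and that difference may be technical.

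The respiratory chain passes electrons from NADH (complex I) and succinate (complex II) by way of ubiquinone, complex III and cytochrome c to oxygen at complex IV, and complex V uses the proton gradient to make ATP. Its subunits are encoded partly by nuclear genes, whose products are imported into mitochondria, and partly by mitochondrial DNA, and dedicated assembly factors put them together. Activated T cells enlarge this machinery as they grow, and when oxygen is short cells exchange some subunits for isoforms made under hypoxia. Mthfd2 works in the folate pathway inside mitochondria.

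The libraries held between 14191401 and 15955863 counts. Mthfd2 itself had 222 and 252 CPM in KO libraries and 280 CPM in both WT libraries. CPM are counts per gene scaled by the total of each library after TMM adjustment. The difference in Mthfd2 did not pass the test (edgeR adjusted p = 0.324), so directions rest on the labels. Per kilobase of exon, the ratio of Cd8a to Cd4 was 3.51 and 3.55 in KO libraries and 4.43 and 3.43 in WT libraries, so the defining transcript of CD8 cells exceeded that of the labelled CD4+ cells. On the first principal component, which held 68.96% of the variance, KO replicates lay at 43.79 and 40.87 and WT replicates at -65.08 and -19.57, so WT replicate 1 stood apart. The summed level of 5 MHC class II markers of antigen-presenting cells was 1176 and 1007 CPM in KO libraries, against 3780 and 2241 CPM in WT libraries, and all 5 were called lower. The sum of 10 B cell markers was 511 and 455 CPM in KO libraries, against 1399 and 868 CPM in WT libraries, and 4 were called lower. For 10 T cell markers it was 3259 and 3377 CPM in KO libraries, against 2224 and 2439 CPM in WT libraries, and 3 were called higher. The levels of these markers moved with the groups, and their part in the results on the subunits was not tested. In such bulk RNA, fewer cells of a type and less RNA per cell cannot be told apart.

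Most subunit transcripts stood slightly higher in KO libraries, and 1 of them, Ndufv3, passed the test. Of the 84 tested members, 1 was called higher and 0 lower (edgeR quasi-likelihood test, Benjamini-Hochberg adjusted p under 0.05), where 3.95% of all 12752 tested genes were called, 2.39% as higher and 1.56% as lower. Without adjustment, 11 members were higher and 1 was lower at a p under 0.05, against 12.8% and 12.7% of all tested genes. The log2 fold change was positive for 67 of 84 members (79.8%), against 49.8% of all tested genes, and its median was 0.20, against -0.0026 over all tested genes. Both KO libraries lay above both WT libraries for 42 members and below them for 4 (Ndufs3, Ndufa11, Cox6a2 and Atp5g1), against 29.8% and 30.1% of all tested genes. The groups overlapped for the other 38. Summed over all members, the level was 11229 and 11725 CPM in KO libraries, against 9636 and 10070 CPM in WT libraries, a ratio of 1.16. The 95% interval of the log2 fold change lay within a 2-fold change either way for 70 of 84 members, against 53.0% of all tested genes. Each interval holds for 1 gene at a time. None covers errors from shared reads or from a shift in cell types. DESeq2 called 4 members higher (Ndufv3, Cox7a2l, Cox8a and Atp5j2) and 1 lower (Cox6a2), where it called 6.65% of genes higher and 6.18% lower. Without KO replicate 1 or without KO replicate 2, edgeR called 0 members and 0 genes in all, with 6 and 7 members at an unadjusted p under 0.05. Without WT replicate 2 it called 4 members and 2559 genes in all.

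**Figure D1:**
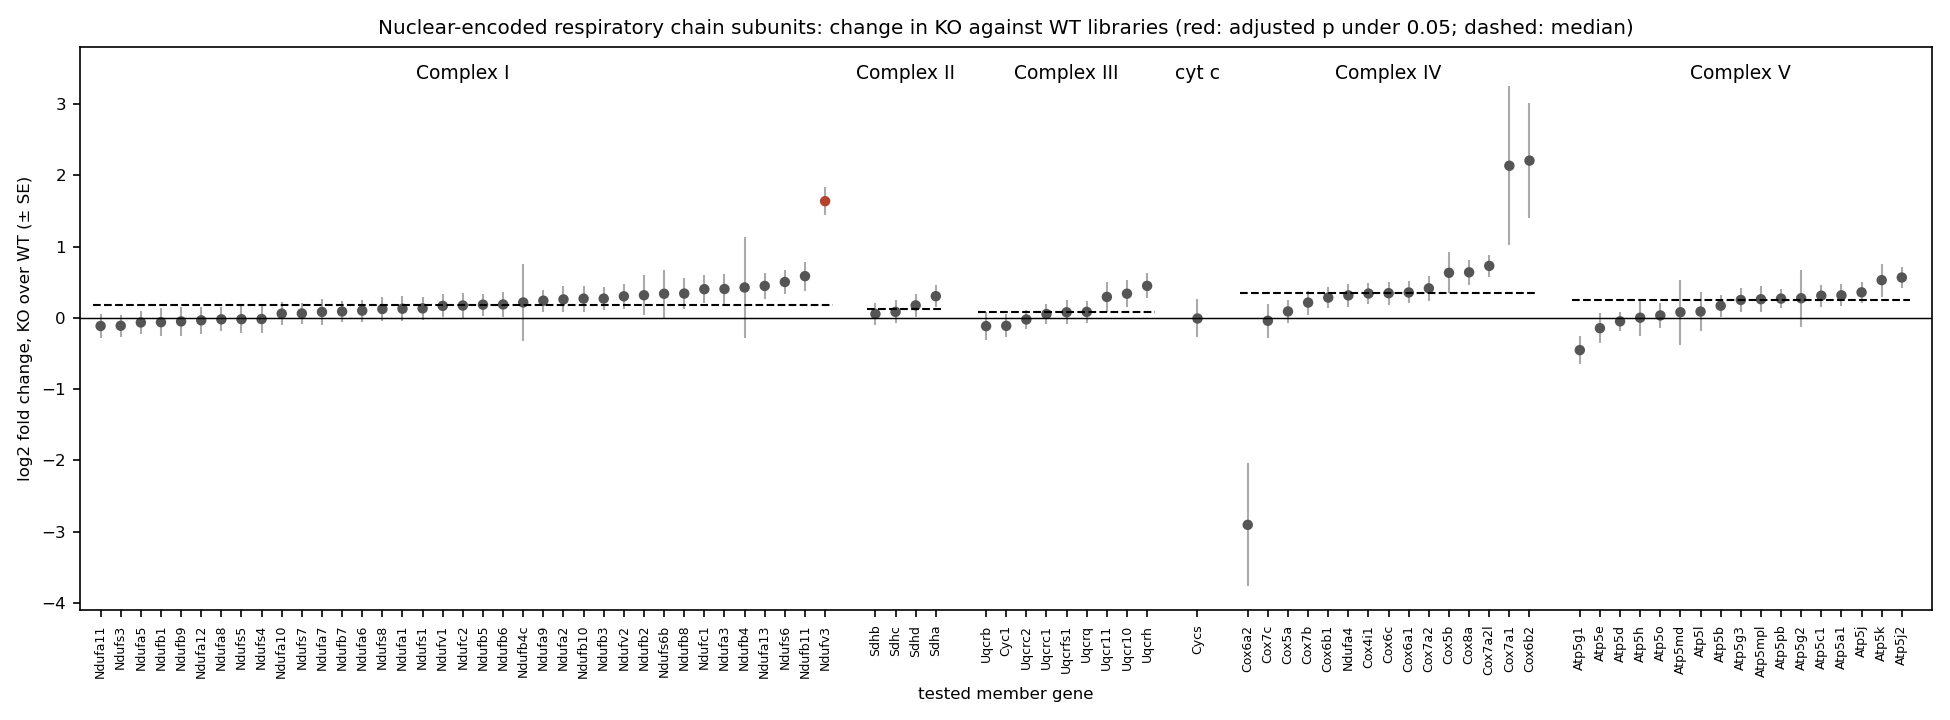
Log2 fold change of KO over WT libraries (y axis, points, with bars of 1 standard error) for 83 of the 84 tested members (x axis), grouped by complex and ordered by value, with the median over all tested members of each complex as a dashed line. Ndufv3, drawn in red at 1.64, is the member past the threshold, and the medians lie between 0.08 (complex III) and 0.35 (complex IV).

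In complex I, the NADH dehydrogenase, 29 of 38 tested members had a positive log2 fold change, with a median of 0.18 and a range of -0.11 to 1.64. Ndufv3, an accessory subunit that sits beside the NADH-oxidising site of the matrix arm, had 111 and 97.1 CPM in KO libraries, against 28.6 and 38.3 CPM in WT libraries. The groups did not overlap, and the lower KO library lay far above the higher WT library. The log2 fold change was 1.64 ± 0.20 (SE, n = 2 libraries per group, 95% interval 1.16 to 2.11), a 3.11-fold rise (edgeR quasi-likelihood test, Benjamini-Hochberg adjusted p = 0.025). It was 1.54 without KO replicate 1 (adjusted p = 0.297) and 1.73 without KO replicate 2 (adjusted p = 0.147), in edgeR fits where no gene of the table was called, and the adjusted p ranged from 6.4e-10 to 0.297 over the alternatives. The gene (ENSMUSG00000024038.17) lies on the plus strand of chromosome 17 (GRCm38, chr17:31520115-31531331). Its transcripts shared 0 of their 50-base windows with any other annotated gene, so no near-identical annotated copy was found.

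The flavin and iron-sulfur subunits next to Ndufv3 did not pass the test. Ndufv1, which carries the flavin that takes electrons from NADH, had 130 and 145 CPM in KO libraries and 112 and 132 CPM in WT libraries. Ndufv2, its iron-sulfur partner, had 153 and 119 CPM in KO libraries and 106 and 115 CPM in WT libraries. The groups overlapped for Ndufv1 and stood close for Ndufv2, with log2 fold changes of 0.17 ± 0.16 (edgeR adjusted p = 0.549) and 0.30 ± 0.18 (0.323). Per kilobase of exon, the level of Ndufv3 was 70.7% and 55.5% of that of Ndufv1 in KO libraries, against 21.0% and 24.1% in WT libraries. In the order of levels per kilobase among 36 complex I subunits without the retrogene copies, it stood at place 20 and 21 in KO libraries, against place 33 and 32 in WT libraries, while Ndufv1 stood at place 12 or 13 in all 4. The difference between the log2 fold changes of these genes was not tested.

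The promoter of Ndufv3 is shown because it belongs to the member that passed the test, beside that of Cox7a2l, which came closest to the threshold after it. Both run from 250 bases before to 30 bases after the start site of the RefSeq transcript (GRCm38.p6), and capitals mark ACGTG and GCGTG, the core letters bound by hypoxia-inducible factors, on either strand. The letters CACGTG would hold ACGTG on both strands at once.
Ndufv3 (chr17:31519865-31520144, plus strand): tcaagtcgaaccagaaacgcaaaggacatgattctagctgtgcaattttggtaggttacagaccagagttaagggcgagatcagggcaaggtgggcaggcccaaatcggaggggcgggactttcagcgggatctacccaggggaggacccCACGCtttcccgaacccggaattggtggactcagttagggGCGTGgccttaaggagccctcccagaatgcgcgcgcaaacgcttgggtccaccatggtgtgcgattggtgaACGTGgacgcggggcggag
Cox7a2l (chr17:83514304-83514583, minus strand): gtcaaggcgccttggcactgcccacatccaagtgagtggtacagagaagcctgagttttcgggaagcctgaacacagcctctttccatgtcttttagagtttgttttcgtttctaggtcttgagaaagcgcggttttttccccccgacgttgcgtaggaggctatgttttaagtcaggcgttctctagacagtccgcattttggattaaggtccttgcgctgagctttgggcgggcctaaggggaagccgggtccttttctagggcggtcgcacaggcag
The Ndufv3 window held GCGTG on the opposite strand at -100. On the transcribed strand it held GCGTG at -60, ACGTG at +12 and, past the stretch shown, GCGTG again at +42. The Cox7a2l window held neither. Of the 70 members found in the promoter table, ACGTG occurred in 27.1% and GCGTG in 55.7%, against 29.8% and 56.1% of the 9558 tested genes in the table, which include the tested members, and the difference was not tested. A match is a run of letters and does not show a bound factor.

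Among the other parts of complex I, the 10 members of the NADH-oxidising N module had a median log2 fold change of 0.15, the 6 of the ubiquinone-binding Q module 0.09 and the 20 of the membrane arm 0.19. Ndufs1, the large iron-sulfur subunit of the N module, had 125 and 144 CPM in KO libraries and 114 and 131 CPM in WT libraries, and the groups overlapped (0.13 ± 0.16, edgeR adjusted p = 0.646). The next largest values after Ndufv3 belonged to Ndufb11 (0.59) of the membrane arm and Ndufs6 (0.50) of the N module, named after their values were seen, with edgeR adjusted p = 0.139 and 0.131. At the low end, Ndufa11, a membrane arm subunit, had 31.5 and 31.8 CPM in KO libraries, against 35.4 and 33.1 CPM in WT libraries. Its groups did not overlap, yet the log2 fold change of -0.11 ± 0.16 did not pass the test (edgeR adjusted p = 0.702). Ndufc2, a membrane arm subunit, had the highest level of complex I per kilobase as a mean over the 4 libraries, though not in each, with 127 and 104 CPM per kilobase in KO libraries and 99.2 and 106 in WT libraries, which overlapped. The retrogene copies Ndufs6b and Ndufb4c had at most 5.81 CPM in a library, and all windows of Ndufb4c were shared with Ndufb4, so their counts are uncertain.

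Complex II, succinate dehydrogenase, has 4 subunits, all nuclear, and all 4 had small positive log2 fold changes (median 0.13, range 0.06 to 0.30), none past the test (0 called by edgeR and by DESeq2, 0 at an unadjusted p under 0.05). Sdha, the flavin subunit that oxidises succinate, had 314 and 363 CPM in KO libraries, against 258 and 290 CPM in WT libraries. Its groups did not overlap (0.30 ± 0.15, edgeR adjusted p = 0.256). Sdhb, the iron-sulfur subunit, had 195 and 187 CPM in KO libraries and 166 and 201 CPM in WT libraries, which overlapped (0.06 ± 0.16, edgeR adjusted p = 0.858). Sdhd, a membrane anchor and the most abundant of the 4 per kilobase, had 131 and 142 CPM per kilobase in KO libraries and 108 and 133 in WT libraries.

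Complex III, the cytochrome bc1 complex, was nearly level between the groups, with a median log2 fold change of 0.08 over 9 members, 6 of them positive, and a ratio of summed levels of 1.05. Its electron-carrying subunits overlapped between groups. Cyc1, cytochrome c1, had 203 and 255 CPM in KO libraries and 238 and 257 CPM in WT libraries (-0.11 ± 0.16, edgeR adjusted p = 0.706). Uqcrfs1, the Rieske iron-sulfur protein, had 187 and 216 CPM in KO libraries and 170 and 212 CPM in WT libraries (0.08 ± 0.17, edgeR adjusted p = 0.815). The small subunits Uqcrh, Uqcr10 and Uqcr11 were the 3 whose KO libraries both lay above the WT libraries. That is 3 of 9 members, near the 29.8% of all tested genes with this order. Uqcrh, the hinge subunit, had 155 and 121 CPM in KO libraries, against 97.2 and 105 CPM in WT libraries (0.45 ± 0.18, edgeR adjusted p = 0.175). Uqcr10 had the highest level per kilobase of the complex, at 197 and 188 CPM per kilobase in KO libraries, against 130 and 174 in WT libraries. At the low end, Uqcrb, with 28.0 and 22.3 CPM in KO libraries and 26.9 and 27.6 CPM in WT libraries, shared 43.4% of its windows with other annotated genes. Cycs, cytochrome c, which carries electrons on to complex IV, had 12.9 and 15.8 CPM in KO libraries and 12.1 and 16.7 CPM in WT libraries, with a log2 fold change of 0.00 ± 0.27. The interval of Cycs (-0.64 to 0.64) lay within a 2-fold change, and 28.5% of its windows were shared with other annotated genes.

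Complex IV, cytochrome c oxidase, had a median log2 fold change of 0.35 over 15 tested members, of which 13 were positive. For 12 of the 15, both KO libraries lay above both WT libraries, against 29.8% of all tested genes. The ratio of summed levels was 1.3, from 1716 and 1623 CPM in KO libraries and 1224 and 1343 CPM in WT libraries. The other complexes and cytochrome c together gave a median of 0.17 over 69 members, and the difference between complexes was not tested. With all libraries the median of complex IV was above those of the other complexes, but without KO replicate 1 it was 0.25, against 0.28 for complex V. Cox7a2l, also called SCAF1, which links complex IV to complex III in supercomplexes, had 143 and 130 CPM in KO libraries, against 81.2 and 83.4 CPM in WT libraries. The groups lay well apart, and the log2 fold change of 0.73 ± 0.15 (95% interval 0.37 to 1.09) just missed the threshold (edgeR quasi-likelihood test, Benjamini-Hochberg adjusted p = 0.0502). It was called by edgeR with RLE factors (0.0495) and without a filter (0.0234), by limma-voom (0.0450), by DESeq2 (0.00174) and without WT replicate 2 (0.02), and the adjusted p ranged from 0.00174 to 0.356 over the alternatives. Of its windows, 17.8% were shared with a pseudogene.

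Cox8a, the small subunit of complex IV with the highest mean level per kilobase over the 4 libraries, though Cox6a1 was level with it in WT replicate 1, had 239 and 237 CPM in KO libraries, against 132 and 173 CPM in WT libraries (0.64 ± 0.17, edgeR adjusted p = 0.0828, range 0.011 to 0.389 over the alternatives). The KO libraries agreed closely and lay above both WT libraries. Cox8a was called by DESeq2 (adjusted p = 0.0164) and by edgeR without a filter (adjusted p = 0.0443), and its log2 fold change was 0.85 without WT replicate 2. The structural subunit Cox4i1, which takes part in the control of the enzyme by ATP, had 312 and 316 CPM in KO libraries, against 232 and 263 CPM in WT libraries (0.34 ± 0.14, edgeR adjusted p = 0.192). Cox5a, a matrix-side subunit, had 90.8 and 104 CPM in KO libraries and 88.0 and 94.8 CPM in WT libraries, which overlapped (0.09 ± 0.16, edgeR adjusted p = 0.760). Cox6a1, Cox6b1, Cox7a2, Cox7b and Ndufa4, a subunit first named for complex I, had log2 fold changes between 0.21 and 0.41, and in each both KO libraries lay above both WT libraries.

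**Figure D2:**
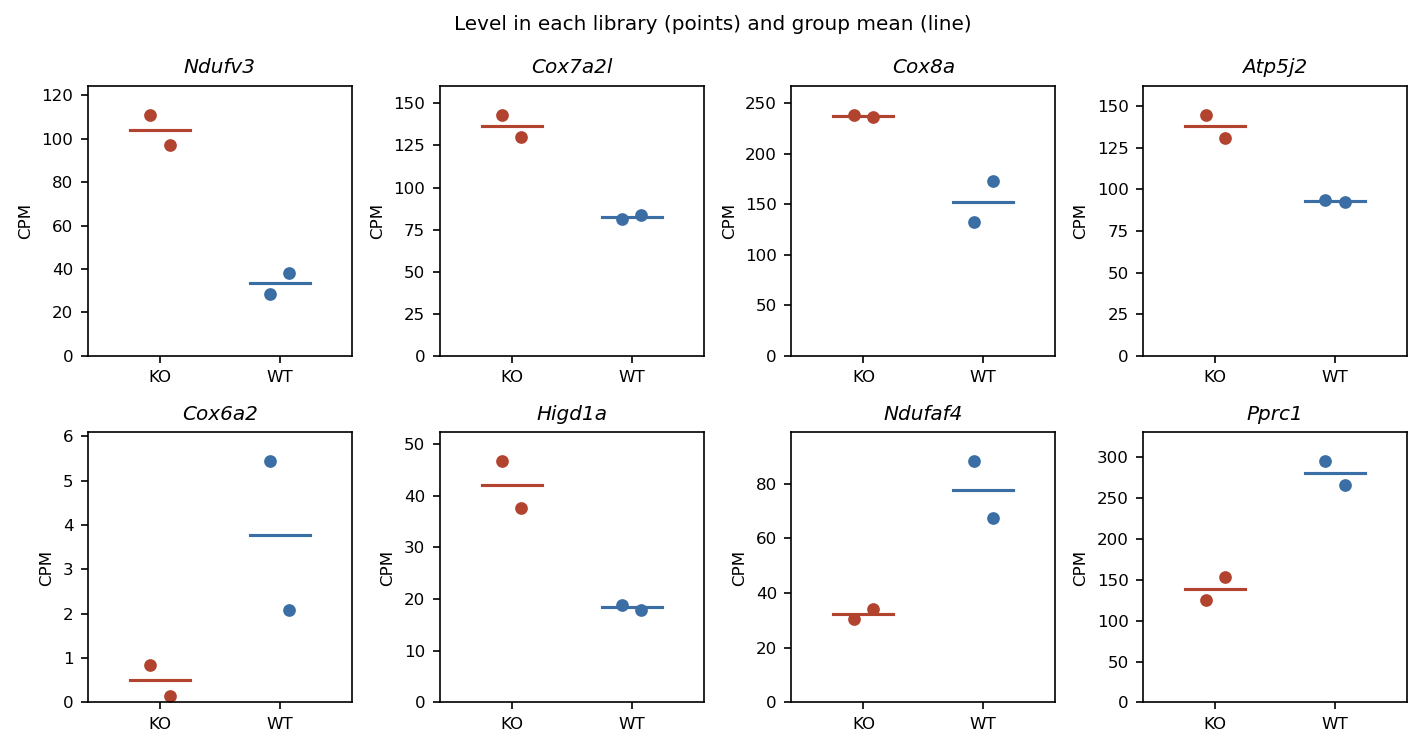
Level in CPM (y axis, from 0) in each KO and WT library (points, KO on the left), with the mean of each group as a line, for 5 members and for the assembly and regulator genes Higd1a, Ndufaf4 and Pprc1. In each panel the points of the groups do not overlap: Ndufv3 had 111 and 97.1 CPM in KO libraries and 28.6 and 38.3 CPM in WT libraries.

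The isoforms of complex IV linked to hypoxia stayed at or near 0 in both groups. Cox4i2, the isoform of Cox4i1 induced by low oxygen in lung, had 0 counts in all 4 libraries, which allows up to 0.183 to 0.215 CPM per library (3 counts) and at most 0.155% of the level of Cox4i1 per kilobase. Ndufa4l2, the paralogue of Ndufa4 induced by hypoxia-inducible factor, had 3 and 4 counts in KO libraries and 1 and 2 in WT libraries. The summed counts of 7 and 3 gave a ratio of 2.59 with a 95% counting interval of 0.591 to 15.5, so no difference was detectable at this depth. Per kilobase, Ndufa4l2 stood at 0.152% and 0.252% of Ndufa4 in KO libraries, against 0.0588% and 0.136% in WT libraries. These intervals and limits cover counting error only.

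The same libraries did show higher transcripts for some other regulators of respiration linked to hypoxia. Of 11 tested genes in that list, 6 were called higher and 0 lower (median 1.20, edgeR), against 2.39% and 1.56% of all tested genes. The list was chosen with earlier results of these data known, so this share is a description and no test. The 3 negative genes, none of them called, were Hif1a (-0.04), Chchd2 (-0.06) and AA467197 (-1.39). Higd1a, a hypoxia-induced protein that binds complex IV, had 46.6 and 37.5 CPM in KO libraries, against 18.8 and 17.9 CPM in WT libraries. Its groups lay apart, and it rose by 1.20 ± 0.19 on the log2 scale (edgeR quasi-likelihood test, Benjamini-Hochberg adjusted p = 0.0397). Pdk1, a kinase that inhibits pyruvate dehydrogenase, rose by 1.71 on the log2 scale, and Bnip3, which marks mitochondria for autophagy, rose by 4.07. Egln1, an oxygen-sensing hydroxylase, rose by 1.81 and Epas1, an alpha subunit of hypoxia-inducible factor, by 3.56. Mgarp had 431 counts in KO libraries and 2 in WT libraries, a ratio of 239 (95% counting interval 65.8 to 1980). Lonp1, the protease reported in other cells to degrade the Cox4i1 protein when Cox4i2 takes its place, had 312 and 323 CPM in KO libraries, against 219 CPM in both WT libraries (0.53 ± 0.13, edgeR adjusted p = 0.0711). Without KO replicate 1 or KO replicate 2 none of the 6 was called, as for every gene, and Higd1a was at 1.03 and 1.35 (adjusted p = 0.297 and 0.155).

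The isoforms of heart, muscle and testis were far below their common counterparts, and none of the 3 tested passed the test (edgeR). Cox6a2, the heart and muscle isoform of Cox6a1, had 12 and 2 counts in KO libraries, against 89 and 31 in WT libraries, or 0.848 and 0.143 CPM against 5.44 and 2.10 CPM. WT replicate 1 was the highest and the groups did not overlap. The log2 fold change of -2.90 ± 0.86 did not pass the test (edgeR adjusted p = 0.102, range 0.0203 to 0.334 over the alternatives), and it was called without WT replicate 2 (-3.42, adjusted p = 0.0203), without a filter (0.0297) and by DESeq2 (0.0248). The summed level of 10 dendritic and myeloid markers followed the same order of groups, at 18.0 and 14.8 CPM in KO libraries, against 57.8 and 24.1 CPM in WT libraries, with 0 of 6 tested markers called, 5 of them negative. Of these markers, S100a8 had 0 counts in both KO libraries and 99 and 3 in WT libraries, while Itgax had 53 and 25 counts in KO libraries and 31 and 32 in WT libraries. The sums of the B cell and MHC class II markers given above had the same order of groups. So did the sum of 5 erythroid markers, at 6.86 and 3.08 CPM in KO libraries, against 127 and 32.3 CPM in WT libraries. The sums of T cell and NK cell markers were higher in KO libraries. Most of the NK sum came from Klrk1, with 107 and 82.0 CPM in KO libraries, against 17.9 and 37.9 CPM in WT libraries. Of the 3 NK markers 2 were positive and 1 negative. The negative one, Ncr1, had 11 and 4 counts in KO libraries, against 45 and 40 in WT libraries. The part of any of these cells in the level of Cox6a2 was not tested. Cox6b2, the testis isoform of Cox6b1, had 0.990 and 0.860 CPM in KO libraries, against 0.122 and 0.270 CPM in WT libraries (2.21 ± 0.80, edgeR adjusted p = 0.152). Cox7a1, the heart and muscle isoform of Cox7a2, had 17 and 11 counts in KO libraries and 7 and 0 in WT libraries (2.13 ± 1.11, edgeR adjusted p = 0.277). Cox8b had 4 counts in WT replicate 2 and 0 in the other libraries, and the testis isoforms Cox7b2 and Cox8c had 0 throughout. Per kilobase, Cox6a2 stood at 0.435% and 0.0678% of Cox6a1 in KO libraries, against 3.73% and 1.22% in WT libraries.

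**Figure D3:**
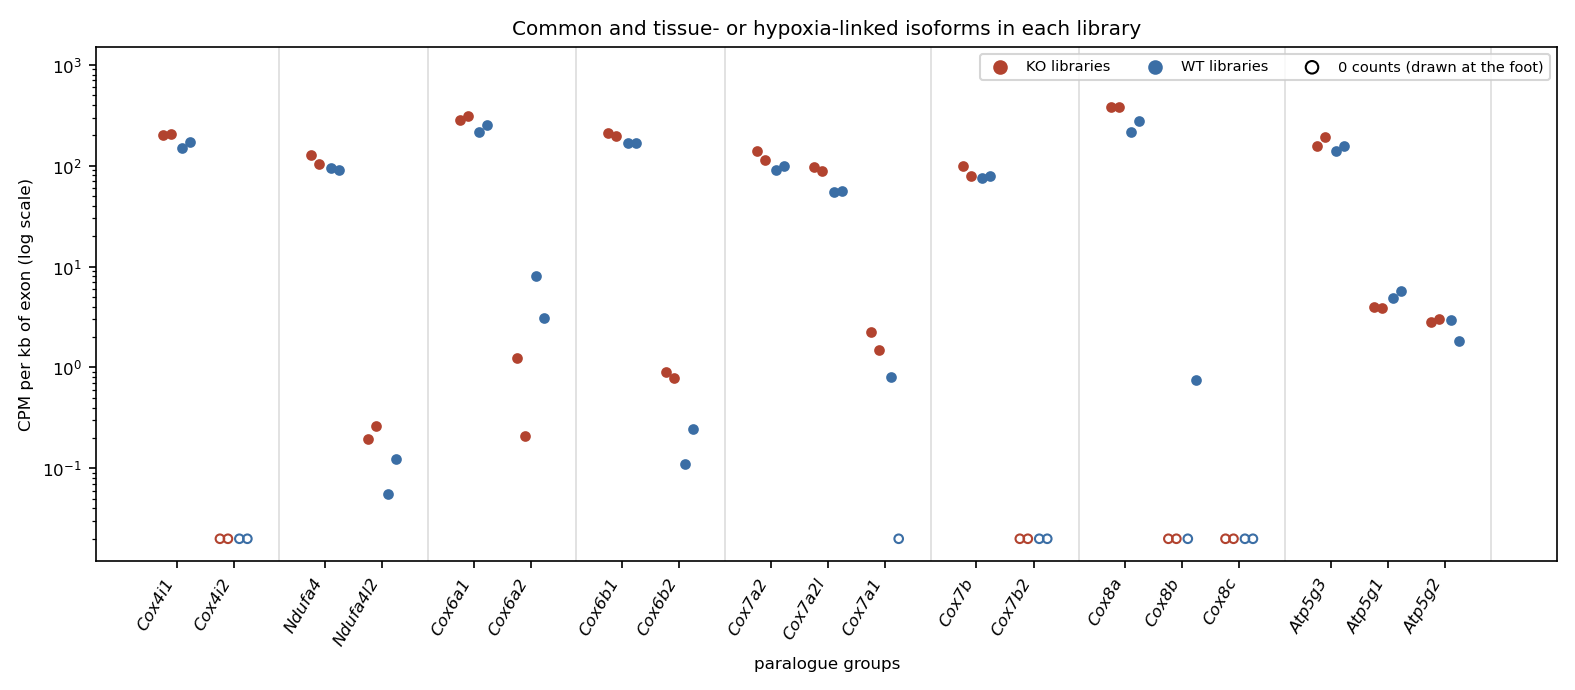
Level per kilobase of exon in CPM (y axis, log scale) for common subunits and their paralogues (x axis, groups parted by grey lines), with KO libraries in red on the left of each gene and WT libraries in blue on the right. Open circles at the foot mark 0 counts. The common forms and Cox7a2l lie between 55.0 and 386 CPM per kilobase, the other forms of complex IV at 7.99 or below, and Cox4i2, Cox7b2 and Cox8c have open circles for every library.

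Complex V, ATP synthase, had a median log2 fold change of 0.25 over 17 members, 14 of them positive, and 0 were called by edgeR (2 at an unadjusted p under 0.05, 1 called by DESeq2). The catalytic head is made mainly of the alpha and beta subunits. Atp5a1 (alpha) had 1369 and 1571 CPM in KO libraries, against 1142 and 1220 CPM in WT libraries (0.32 ± 0.15, edgeR adjusted p = 0.249). Atp5b (beta), the member of complex V with the highest mean level per kilobase over the 4 libraries, though Atp5a1 was higher in KO replicate 2, had 1853 and 2059 CPM in KO libraries, against 1763 and 1714 CPM in WT libraries (0.17 ± 0.15, edgeR adjusted p = 0.523). In both genes the groups did not overlap, and both intervals lay within a 2-fold change. Atp5j2, subunit f of the membrane part, had 145 and 131 CPM in KO libraries, against 93.8 and 92.4 CPM in WT libraries. The groups lay well apart (0.57 ± 0.15, edgeR adjusted p = 0.0799), and DESeq2 called it (adjusted p = 0.0219, range 0.0219 to 0.427 over the alternatives).

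The 3 genes for subunit c, which forms the proton-driven ring, encode the same mature protein and differed in level per kilobase, and none passed the test (edgeR). Atp5g3 was the main one, at 156 and 193 CPM per kilobase in KO libraries, against 138 and 155 in WT libraries. Atp5g1 stood at 2.51% and 1.99% of Atp5g3 per kilobase in KO libraries, against 3.54% and 3.69% in WT libraries. It had the lowest log2 fold change of complex V, with 19.3 and 18.9 CPM in KO libraries, against 24.1 and 28.2 CPM in WT libraries. Both KO libraries lay below both WT libraries, but the difference did not pass the test (-0.45 ± 0.20, edgeR adjusted p = 0.209). Atp5g2 had 4.67 and 5.02 CPM in KO libraries and 4.95 and 3.04 CPM in WT libraries (0.28 ± 0.40, edgeR adjusted p = 0.705), and 38.3% of its windows were shared with other annotated genes.

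Members were also read for the letters that bind NRF1, a factor known for driving respiratory chain genes. The motif GCGCATGCG, searched on both strands, occurred in 9 of 70 members with a promoter in the table (12.9%), against 4.25% of tested genes and 1.95% of all 27025 genes. The stretches of 4 of them are shown on the transcribed strand (RefSeq GRCm38.p6), with the motif in capitals: the 2 with the highest log2 fold change among the 9, the lowest, and cytochrome c. In 3 of the 4 the motif on one strand runs into its match on the other.
Atp5k (chr5:108434415-108434474, minus strand): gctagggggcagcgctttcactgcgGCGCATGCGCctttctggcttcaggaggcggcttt
Cox6a1 (chr5:115349086-115349145, minus strand): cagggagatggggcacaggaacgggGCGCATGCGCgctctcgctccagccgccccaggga
Cycs (chr6:50566596-50566655, minus strand): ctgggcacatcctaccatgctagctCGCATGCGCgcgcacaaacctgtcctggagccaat
Ndufa11 (chr17:56717677-56717736, plus strand): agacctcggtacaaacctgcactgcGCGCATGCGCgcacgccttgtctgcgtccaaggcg
The motif began at -50 in Atp5k, -162 in Cox6a1, -61 in Cycs and -60 in Ndufa11. The log2 fold changes were 0.53 in Atp5k, 0.36 in Cox6a1, 0.00 in Cycs and -0.11 in Ndufa11. The other 5 (Atp5g2, Atp5l, Ndufa8, Uqcr11 and Uqcrc1) lay between -0.02 and 0.29, and none of the 9 passed the test (edgeR). Only Ndufa8 (-0.02 ± 0.17) and Ndufa11 (-0.11 ± 0.16) lay below 0, both by less than 1 standard error. Whether the motif goes with the fold change was not tested. CCGGAAG, bound by GABP and other ETS factors, occurred in 24.3% of members and 21.1% of tested genes, and ATGGCGGC, bound by YY1, in 8.57% and 5.86%, on either strand. Nrf1, the gene for that factor, had 81.2 and 87.3 CPM in KO libraries, against 59.1 and 69.3 CPM in WT libraries (0.39 ± 0.16, edgeR adjusted p = 0.195).

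Most assembly factors had a log2 fold change below 0, unlike most subunits. Of 56 tested assembly factors of complexes I to V, 39 were negative (69.6%) and 17 positive, with a median of -0.12. Among all tested genes 49.8% were positive. Of the 56, 1 was called higher and 1 lower (edgeR), against 2.39% and 1.56% of all tested genes. At an unadjusted p under 0.05 there were 6, against 12.8% of all tested genes as higher and 12.7% as lower. For complex I, 16 of 19 were negative (median -0.15), 1 was called lower and 0 higher. That gene, Ndufaf4, which acts in an early step of complex I assembly, had 30.6 and 34.0 CPM in KO libraries, against 88.1 and 67.5 CPM in WT libraries. The groups lay apart, and it fell by 1.27 ± 0.19 on the log2 scale (edgeR quasi-likelihood test, Benjamini-Hochberg adjusted p = 0.0357). For complexes II and III, 4 of 4 and 6 of 7 assembly factors were negative (medians -0.39 and -0.27) and 0 were called (0 and 1 at an unadjusted p under 0.05). For complex IV, 12 of 23 were negative (median -0.01), and 1, Higd1a, was called higher. For complex V, without the inhibitor Atpif1 of that list, 2 of 4 were negative (median 0.12), and 0 were called (1 at an unadjusted p under 0.05). Tmem70 stands in the lists of complexes I and V and is counted in both. The difference between subunits and assembly factors was not tested, and Ndufaf4 was not called without either KO library (-1.19 and -1.34, adjusted p = 0.297 and 0.175).

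**Figure D4:**
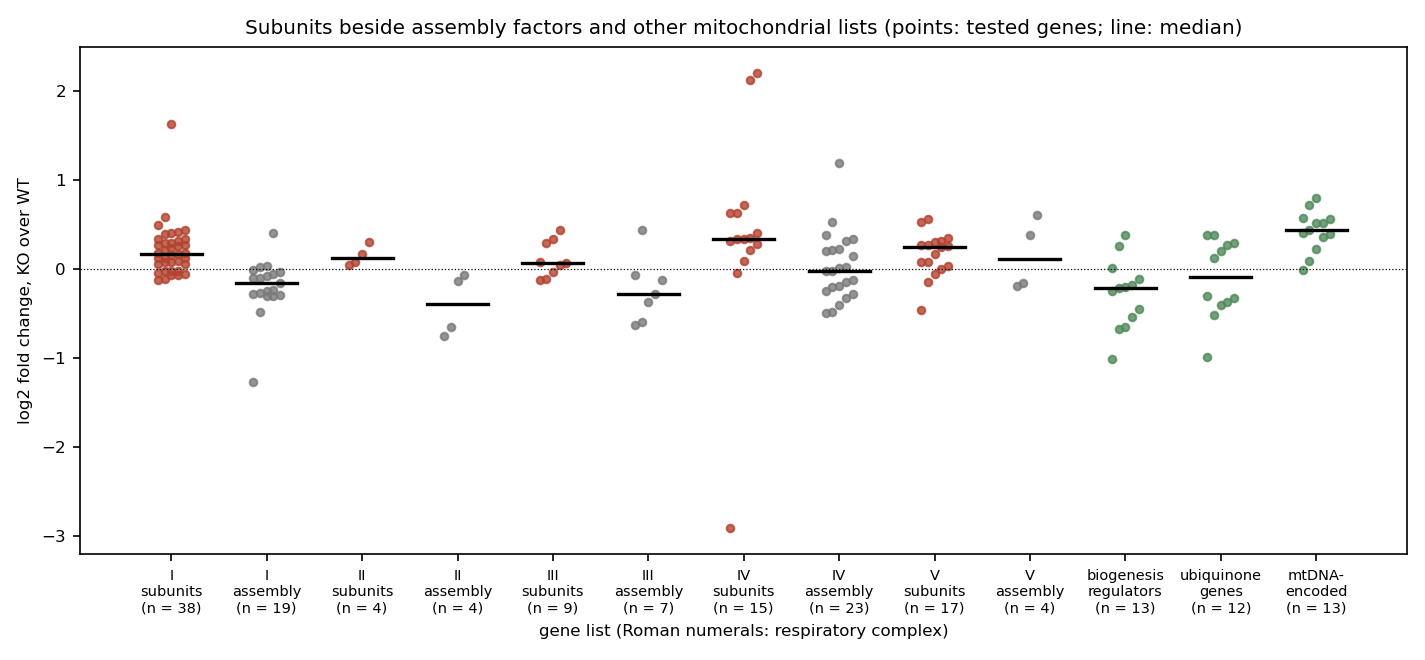
Log2 fold change of KO over WT (y axis) of each tested gene (points), with the median as a line, for the subunits of complexes I to V (red), their assembly factors (grey, without the inhibitor Atpif1) and 3 other mitochondrial lists (green); n counts the tested genes. In complexes I to IV the median of the subunits lies above 0 and that of the assembly factors below it; in complex V both lie above 0.

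Regulators of mitochondrial biogenesis leaned the same way as the assembly factors, with 10 of 13 tested genes negative (median -0.21). Here 1 was called lower and 0 higher (edgeR), against 1.56% and 2.39% of all tested genes. The called gene was Pprc1, a coactivator of NRF1, with 125 and 153 CPM in KO libraries, against 295 and 266 CPM in WT libraries. It fell by 1.01 ± 0.16 on the log2 scale (edgeR quasi-likelihood test, Benjamini-Hochberg adjusted p = 0.0397), and was not called without either KO library (-0.87 and -1.16, adjusted p = 0.297 and 0.149). The 13 respiratory messengers encoded by mitochondrial DNA summed to 24814 and 22543 CPM in KO libraries, against 15468 and 20744 CPM in WT libraries. Of these, 12 were positive (median 0.44), and 0 were called by edgeR (5 at an unadjusted p under 0.05). A list of genes for ubiquinone synthesis and for enzymes that feed ubiquinone, which also held Hccs, split evenly, with 6 of 12 negative (median -0.08). None was called, with 0 past the edgeR threshold and 4 at an unadjusted p under 0.05. Hccs (-0.29), the haem lyase of cytochrome c, does neither of these tasks. The even split and the negative median rest on its being counted.

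Many members have processed pseudogenes, and how reads with several matches were counted is not given in the sources used here. Of the 84 tested members, 33 shared no 50-base window with another annotated gene, and 20 shared 20% or more. The median level was 15.9 CPM per kilobase for those 20 and 58.3 for the other 64. Their log2 fold changes had a median of 0.06 for the 20 and 0.26 for the 64, of which 54 were positive. Atp5h, subunit d of ATP synthase, had 204 and 189 counts in KO libraries and 193 and 239 in WT libraries, while the row of its pseudogene Gm10250 had 2242 and 2057 counts in KO libraries and 2132 and 1826 in WT libraries. The pseudogene row of Ndufs3, Gm12251, held 477 and 547 counts in KO libraries and 731 and 553 in WT libraries, and Ndufs3 itself had 568 and 584 counts in KO libraries and 711 and 668 in WT libraries. Levels of Atp5h, Ndufs3, Atp5l, Uqcrb and the other members of this kind are therefore uncertain.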

How the data were processed

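RNA was depleted of ribosomal RNA and sequenced in 4 libraries, per the labels' protocols. The authors deposited whole-number read counts per gene symbol, not normalized, in 1 table per library. The submitters' processing notes name featureCounts of Subread 2.0.1, the mm10 build, R 4.0.4 and DESeq2 1.30.1. Aligner, annotation, strand and the handling of multi-mapping reads were not given in the sources used here. Members and gene lists were chosen with earlier results of these data known. The table was filtered with filterByExpr (count 10, total 15), scaled by TMM and compared over the whole table, KO over WT, with edgeR 4.0.16 (quasi-likelihood test, R 4.3.3), adjusted by Benjamini-Hochberg over 12752 genes and called at an adjusted p under 0.05. CPM are counts scaled to TMM-adjusted totals; levels between genes are per kilobase of merged exons (GENCODE, GRCm38). Of 170 list entries, 164 were matched. Each complex's highest, lowest and most abundant member, core subunits, paralogue groups and called genes of each list are named; others were named after their values were seen. Of the members, 1 is not reported here by name or drawn, but is in the counts and medians. DESeq2 1.42.0, limma-voom (limma 3.58.1), other scalings, no filter, a replicate block and leaving out each library were alternatives.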

Additional observations from a re-analysis of the deposited data

How the results depend on the processing

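Of the 12752 tested genes 504 were called; the count was 1419 without a filter and 1564 by DESeq2, and 0 to 2559 with 1 library left out. The 1 called member became 2 with RLE factors, 4 without a filter, 5 by DESeq2, 2 by limma-voom and 0 to 4 with 1 library left out. The median log2 fold change of complex I was 0.18, but 0.13 with library size only and 0.15 to 0.23 with 1 library left out, and that of complex V was 0.25, but 0.16 to 0.28 with 1 library left out. With 1 library left out, that of complex II (0.13) ran from 0.07 to 0.27, that of complex III (0.08) from 0.04 to 0.15 and that of complex IV (0.35) from 0.25 to 0.46. The medians of all members and of the 5 complexes stayed positive under every alternative run, and Ndufv3 stayed positive at 1.44 to 1.87. With library size only, the median of all genes moved to -0.05 and 45.7% of genes were positive, with 76.2% of members. Named members near 0 changed sign. With 1 library left out, Atp5g2 ran from -0.026 to 0.673, Cox5a from -0.007 to 0.189, Cyc1 from -0.285 to 0.049, Sdhb from -0.072 to 0.204, Uqcrb from -0.285 to 0.041, Uqcrfs1 from -0.071 to 0.253 and Cycs from -0.211 to 0.256. Cycs was also -0.008 with upper quartile factors, -0.050 with library size only and -0.005 without a filter. The cause was not tested. With 1 library left in a group, its spread is taken from the other group. A median without the members that share 20% or more of their windows, an alternative chosen after seeing the data, was 0.26.

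Whether the replicate numbers of the labels pair the libraries is not known. The deviations of KO replicate 1 and WT replicate 1 from their group means correlated at 0.0397. With 2 libraries per group this value cannot settle the question. With the number as a replicate block, 889 genes and 3 members (Ndufv3, Cox7a2l and Cox6a2) were called.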

Other observations

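Several genes that act on the respiratory chain stood apart between the groups without passing the test, and were chosen after their values were seen. Atpif1, the inhibitor protein of ATP synthase, had 30.5 and 25.6 CPM in KO libraries, against 11.9 and 17.9 CPM in WT libraries (log2 fold change 0.91 ± 0.26, edgeR adjusted p = 0.0924). Lrpprc, which stabilises messengers of mitochondrial DNA, had 145 and 192 CPM in KO libraries, against 227 and 247 CPM in WT libraries (-0.49 ± 0.18, edgeR adjusted p = 0.148). Twnk, the helicase of mitochondrial DNA, had 25.2 and 30.9 CPM in KO libraries, against 43.4 and 44.8 CPM in WT libraries (-0.65 ± 0.18, edgeR adjusted p = 0.0832). None of these 3 overlapped between the groups. Ndufab1, a complex I subunit whose symbol falls outside the families followed, had 16.4 and 17.1 CPM in KO libraries and 14.8 and 19.5 CPM in WT libraries, which overlapped (-0.04 ± 0.24, edgeR adjusted p = 0.945). Among the rows left out for their -ps symbol, Ndufa12-ps had 773 and 884 counts in KO libraries and 937 and 840 in WT libraries.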
